A study of Homo sapiens with 4 samples.

Results

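The 43 genes described here code for proteins that detect DNA damage, stop the cell cycle while damage persists and repair the break or lesion. They were taken from a given list of symbols, and a gene counted as holding a peak when at least 1 entry of the deposited peak list outside the intergenic class carried its symbol. By this rule 28 of the 43 genes held 75 of the 8341 peaks outside the intergenic class, from a list of 9401 peaks, and 15 genes had no entry. The list comes from PAR-CLIP of SMD2 in HEK293T, a human embryonic kidney line that carries the SV40 large T antigen. The series has 3 libraries of the SMD2 immunoprecipitation and 1 input library.

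PAR-CLIP uses a photoreactive uridine, 4-thiouridine, that near-ultraviolet light joins to proteins touching the RNA. Per the labels' protocols, 4-thiouridine was added at 200 uM for 14 h in all samples, crosslinking was done at 365 nm, the protein was pulled down with an anti-FLAG antibody, and RNase T1 trimmed the RNA. The tagged construct is not given in the sources used here. The deposited entries are positions with an annotation class. They carry no height, no strand and no value for a single library or for the input, so depth is unknown, no spread between libraries could be measured and no test between groups was made. Whether the same positions would appear without the immunoprecipitation was not analysed here. Neither was the level of each RNA, and no marker of the cell line could be checked. No genome sequence was used, and no peak of these genes fell in a RefSeq promoter window, so no sequence under a peak is shown.

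SMD2 is one of the Sm proteins that form a ring on spliceosomal small nuclear RNAs, and it sits in the particles that recognise and remove introns. The damage response starts with sensors of breaks and of stalled replication, which activate the kinases ATM and ATR. These act on CHEK2 and CHEK1, which hold the cell cycle back by keeping CDC25 phosphatases from activating cyclin-dependent kinases. Breaks are then mended by homologous recombination, which copies a sister chromatid, or by end joining, while the Fanconi anaemia pathway unhooks crosslinks between strands and excision and mismatch repair replace damaged or mispaired bases.

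Peaks lay in 28 of 43 repair and checkpoint genes, 65.1% (Wilson 95% interval 50.2 to 77.6%), beside 21.6% of the 20056 protein-coding genes of RefSeq. At least 2 peaks were found in 17 of the 43, 39.5% (26.4 to 54.4%), beside 7.31% of protein-coding genes. At least 3 peaks were found in 15 of them, beside 2.83%, and at least 5 peaks in 5 of them, beside 0.538%. The backgrounds in these comparisons were not matched on span. The 43 genes are longer, with a median span of 79.4 kb against 24 kb in other protein-coding genes. The median was 1 peak per gene over the 43 genes and 0 over other protein-coding genes. Among genes with a peak, 39.3% of the 28 had exactly 1, against 66.3% of the 4295 other protein-coding genes with a peak. Intervals cover counting error only, and the list of genes was chosen with earlier results of these data known, so these shares are a description and were not tested.

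**Figure D1:**
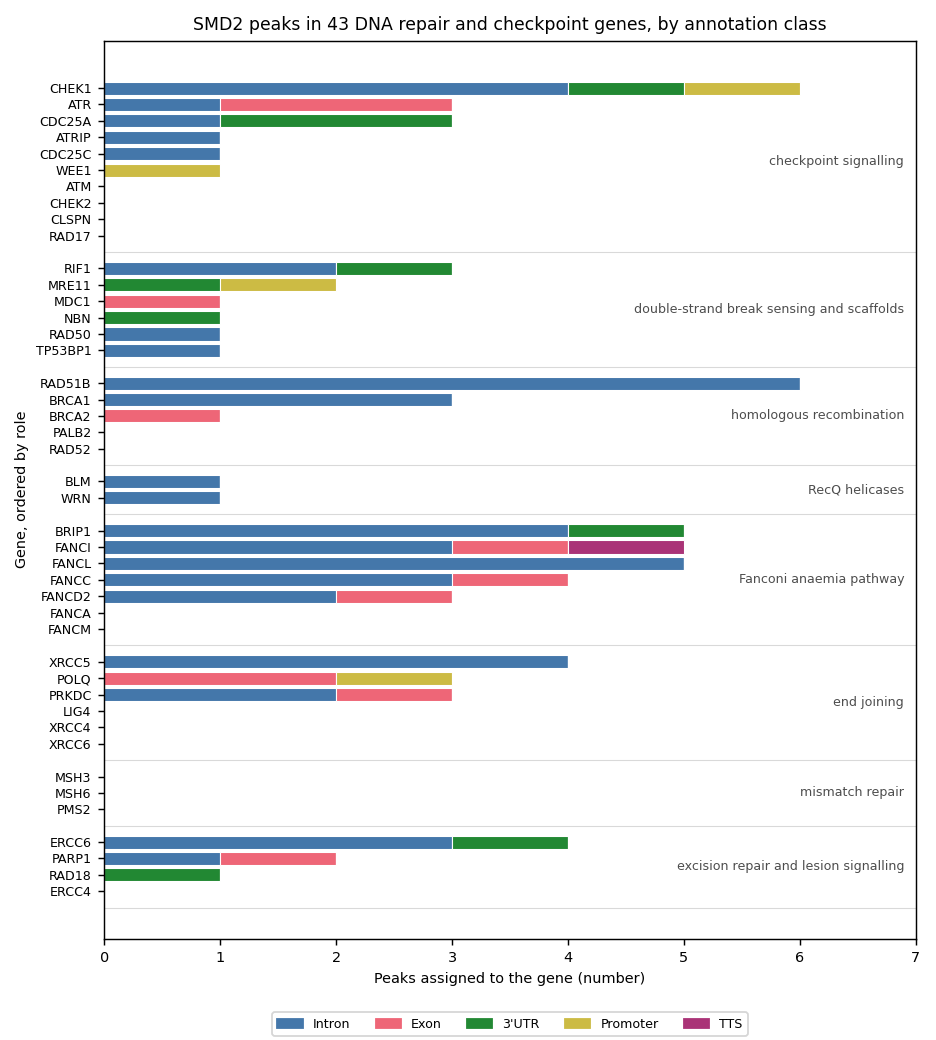
Number of SMD2 peaks assigned to each of the 43 genes (horizontal axis), with genes grouped by role on the vertical axis and bars split by the authors' annotation class (TTS, transcription termination site). CHEK1 and RAD51B reach 6 peaks, and the 3 mismatch repair genes have none.

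Checkpoint signalling genes held 15 peaks in 6 of 10 genes. This and the counts by role below stand beside 21.6% of all protein-coding genes with a peak, a share that rises with span. CHEK1, the kinase that acts below ATR when replication stalls, held 6 peaks, as many as RAD51B and more than any of the other members. Its RefSeq span is 56.0 kb on chromosome 11 (hg38, 125625136 to 125681124), which gives 10.7 peaks per 100 kb. Of 2699 protein-coding genes of 40 to 70 kb, a range chosen after the values were seen, 10 held 5 or more peaks and 2 held 6 or more, with a mean of 0.466. CHEK1 itself is counted in each of these numbers.

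Of the peaks of CHEK1, 4 lay close together. The first, labelled promoter, lay at 125623566 to 125623586, which is 1560 nt before the RefSeq start of the gene and the only 1 of the 75 peaks outside the span of its gene. An intronic peak followed at 125639975 to 125640005. The other 4 lay between 125655954 and 125662057, at 55.1%, 60.7%, 64.2% and 65.9% of the span. The first of these 4 carried the 3' UTR label although it lay 25158 nt before the RefSeq end of the gene, and the next 3 were labelled intronic and assigned to another transcript.

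ATR, the kinase that responds to single-stranded DNA, held 3 peaks in 129.5 kb. Of these, 2 were labelled exon and touched each other at 142459255 to 142459264 and 142459265 to 142459282 on chromosome 3, so they may be 1 site, and the third was intronic. ATRIP, the partner that brings ATR to damaged DNA, held 1 intronic peak, 1777 nt from its start and also inside the span of ATRIP-TREX1. CDC25A, the phosphatase that CHEK1 marks for degradation, held 3 peaks in 31.3 kb, or 9.59 per 100 kb. Both of its 3' UTR peaks lay 189 nt apart at 48158241 to 48158275 and 48158465 to 48158497 on chromosome 3, and the third was intronic. CDC25C, a phosphatase that promotes entry into mitosis, held 1 intronic peak, and WEE1, the kinase that opposes it, held 1 peak labelled promoter. No entry carried the symbol of ATM, CHEK2, CLSPN or RAD17, of which ATM, with a span of 146 kb, is the longest. CLSPN couples ATR to CHEK1, and RAD17 loads a checkpoint clamp onto DNA.

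All 6 genes for sensors and scaffolds of double-strand breaks held a peak, 9 in all. MRE11, RAD50, TP53BP1 and RIF1 have spans of 83.4 to 152 kb, where 37.2% of protein-coding genes held a peak. Of further genes of this role outside the 43, 9 of 15 held one. The MRE11, RAD50 and NBN proteins form the complex that binds broken ends. MRE11 held 2 peaks, 1 labelled 3' UTR, 2593 nt from the gene end, and 1 labelled promoter. The promoter peak lay 45050 nt downstream of the start of the RefSeq span and 26482 nt from the nearest RefSeq start of MRE11. RAD50 held 1 intronic peak and NBN 1 in the 3' UTR. RIF1, which with TP53BP1 limits the trimming of ends, held 3 peaks in 124.5 kb. Of these, 2 were intronic, and the 3' UTR peak at 151480069 to 151480097 on chromosome 2 lay at 56.4% of the span. TP53BP1 held 1 intronic peak, 5554 nt from its start, and MDC1, the scaffold that reads phosphorylated histone H2AX, held 1 in an exon, inside the span of MDC1-AS1 as well. Reads of a gene and of a partner over the same bases cannot be told apart without a strand.

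Homologous recombination genes held 10 peaks, of which 6 lay in RAD51B, a protein of the recombinase family. RAD51B has a span of 863.3 kb, or 18.7% of the summed span of all 43 genes, and 0.695 peaks per 100 kb, the lowest density among the 28 genes with a peak. All 6 of its peaks were intronic and named the same transcript. They lay on chromosome 14 between 68009763 and 68364559, from 22.0% to 63.1% of the span, with gaps of 18197 to 153963 nt. BRCA1, the ubiquitin ligase that promotes recombination, held 3 intronic peaks in 126 kb, at 43068309 to 43068333, 43071697 to 43071723 and 43122530 to 43122550 on chromosome 17. The 3 peaks named 3 different transcripts. BRCA2, a mediator of recombination, held 1 exon peak at 65.7% of its span. PALB2, which joins BRCA1 to BRCA2, and RAD52 had none. The RecQ helicase genes BLM and WRN, whose proteins unwind recombination and replication intermediates, held 1 intronic peak each.

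Fanconi anaemia genes held 22 peaks in 5 of 7 genes, the most of the 8 roles, and each of these 5 genes had at least 3. Per 100 kb this was 2.83, beside 2.59 for excision repair and lesion signalling, 2.49 for checkpoint signalling and 1.63 over all 43 genes. FANCD2 and FANCI form the clamp that is ubiquitinated at a crosslink, and FANCL is the ubiquitin ligase. FANCI held 5 peaks in 73.3 kb on chromosome 15, of which 3 were intronic, 1 lay in an exon and 1 carried the termination site label, 20706 nt from the nearer end of the RefSeq span. All 5 lay between 89263634 and 89294292. FANCL held 5 intronic peaks in 82.1 kb, spread from 8.63% to 75.7% of the span with gaps of 9966 to 18149 nt, and each named a different transcript. FANCD2 held 3 peaks in 75.5 kb, 2 intronic and 1 in an exon.

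BRIP1, a helicase that binds BRCA1, held 5 peaks in 184.4 kb. Of these, 4 were intronic, 26.4% to 59.7% of the way along, and 1 lay in the 3' UTR, 4202 nt from the gene end. FANCC, part of the complex that carries FANCL, held 4 peaks in 218.7 kb. Its 3 intronic peaks lay within 95194051 to 95196271 on chromosome 9, and the exon peak lay 86916 nt from the nearest of them. The exon peak also overlapped the spans of AOPEP and of the long noncoding RNA gene LOC107987102. FANCA, another subunit of the complex, and FANCM, its DNA-binding translocase, had no entry.

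**Figure D2:**
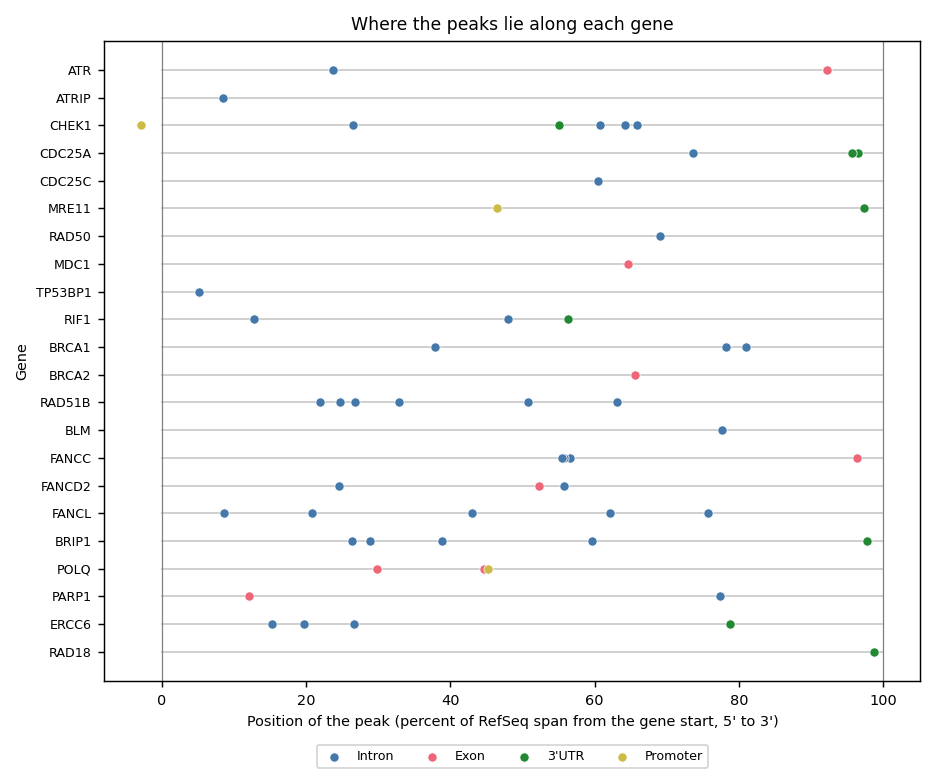
Position of each peak along its gene (horizontal axis, percent of the RefSeq span from the gene start) for the 22 genes with a peak whose strand was known (vertical axis), coloured by annotation class. The 3 intronic peaks of FANCC and the touching peaks of ATR overlap in the plot, and the promoter peak of CHEK1 lies left of 0.

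End joining genes were split, with 10 peaks in 3 of 6 genes. XRCC5 (Ku80), a subunit of the ring that holds broken ends, held 4 intronic peaks in 97.0 kb on chromosome 2 between 216158898 and 216193333. XRCC6 (Ku70), its partner in that ring, had none in 42.8 kb. PRKDC, the kinase that the ring recruits, held 3 peaks in 187 kb, 2 intronic and 1 in an exon. POLQ, the polymerase of an alternative form of end joining, held 3 peaks, 2 labelled exon and 1 labelled promoter. The promoter peak, at 121494105 to 121494190 on chromosome 3, was 86 nt wide, the widest of the 75, and lay 51840 nt from the start of POLQ. This peak and an exon peak of 9 nt, 539 nt away, both overlapped RPL7AP11, a pseudogene of a ribosomal protein gene that lies inside POLQ. Reads of near-identical copies can be placed on such a pseudogene, so the assignment of these peaks to POLQ is uncertain. XRCC4 and LIG4, which form the ligase of end joining, had none, and XRCC4 has the second longest span of the 43, 296.9 kb.

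No mismatch repair member held a peak. MSH3 and MSH6, which recognise mismatches, and PMS2, which cuts the strand, have spans of 222.2, 27.0 and 38.2 kb. Most protein-coding genes of such spans also had no peak. The shares with one were 43.1% at 152 kb or more, 22.7% at 24.1 to 35.3 kb and 28.5% at 35.3 to 52.2 kb. Among the remaining members, ERCC6, a remodeller that frees stalled RNA polymerase for repair, held 4 peaks in 104.7 kb, 3 intronic and 1 in the 3' UTR. The span of PGBD3, a gene inside ERCC6, took in 2 of the intronic peaks. PARP1, the enzyme that marks breaks with poly(ADP-ribose), held 1 exon and 1 intron peak in 47.4 kb, 49 and 37 nt wide. RAD18, a ubiquitin ligase of damage tolerance, held 1 peak of 18 nt in the 3' UTR, 1160 nt from its end. ERCC4, a nuclease subunit of excision repair, had none.

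Longer genes held a peak more often in the genome as a whole, and the repair and checkpoint genes were long, with a median span of 79.4 kb against 24 kb. Protein-coding genes were therefore divided into deciles by span. In decile 9 (83.4 to 152 kb) 13 of 14 repair and checkpoint genes held a peak, 92.9% (68.5 to 98.7%), beside 37.2% of all genes of that decile. ATM was the exception. In decile 8 (52.2 to 83.4 kb) 5 of 9 held one, 55.6% (26.7 to 81.1%), beside 30.2%, and in decile 10, the longest, 4 of 6, 66.7% (30.0 to 90.3%), beside 43.1%. In decile 7 (35.3 to 52.2 kb) 2 of 7 held one, 28.6% (8.22 to 64.1%), beside 28.5%. Of the shorter genes, 1 of 3 in decile 6, 2 of 2 in decile 5 and 1 of 2 in decile 4 held one, beside 22.7%, 18.9% and 13.7%, and none of the 43 lay in deciles 1 to 3. The interval lay wholly above the share of all genes in decile 9 and, with 2 genes, in decile 5 (34.2 to 100%). It took in that share in the other 5 deciles that held members. The deciles were not matched on RNA level.

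**Figure D3:**
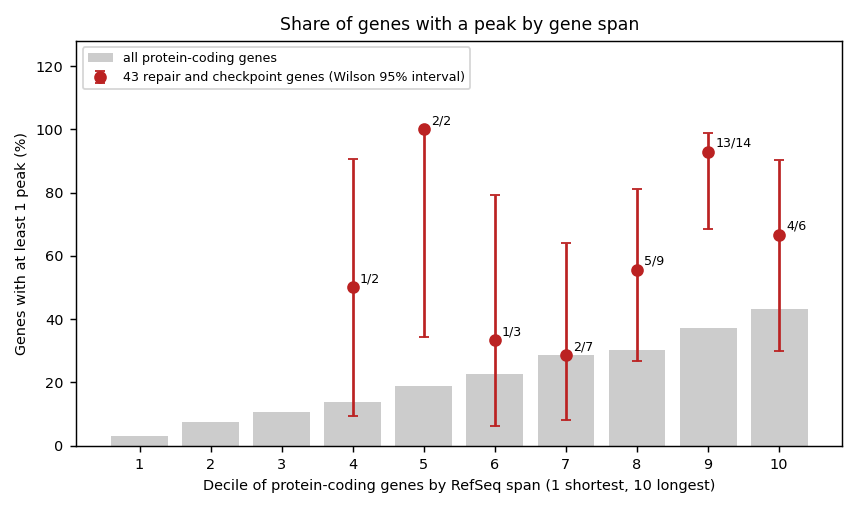
Share of genes with at least 1 peak (vertical axis, percent) in deciles of protein-coding genes by span (horizontal axis). Grey bars are all protein-coding genes, and red points with Wilson 95% intervals are the repair and checkpoint genes, labelled with the number holding a peak over the number in the decile, such as 13 of 14 in decile 9.

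Over the 43 genes the number of peaks went up with span with a Spearman rho of 0.387 and, on log10 span, a Pearson r of 0.426. Over the 20013 other protein-coding genes these were 0.311 and 0.294. All points come from the same peak list, and genes are not replicates. The summed span of 4608 kb held 1.63 peaks per 100 kb, against 0.519 for other protein-coding genes. Without RAD51B the value was 1.84, and without CHEK1 it was 1.52. These densities were not matched on span. Over all protein-coding genes the mean number of peaks was 0.482 in decile 8 (52.2 to 83.4 kb). It was 0.824 in decile 10 (152 to 2470 kb), a rise less than in proportion to span, so a summed density depends on the mix of spans.

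**Figure D4:**
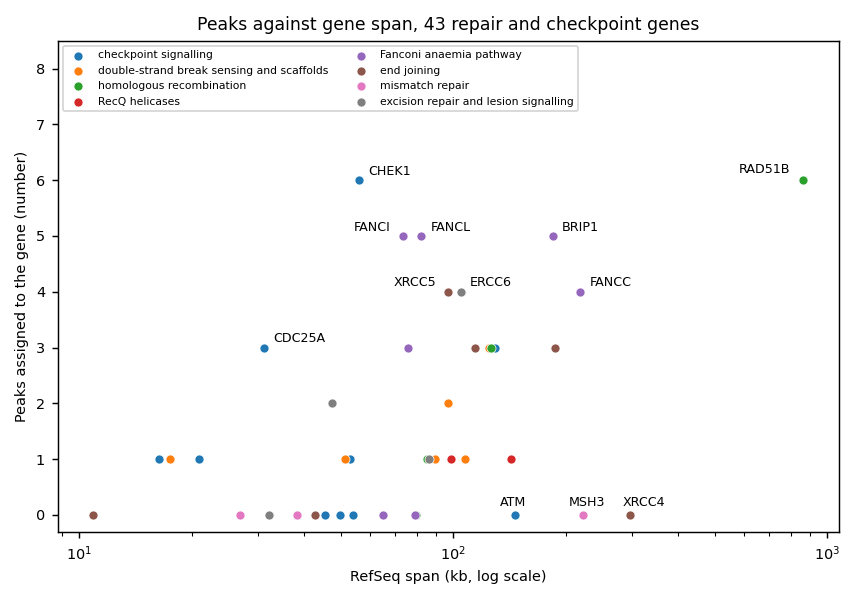
Number of peaks (vertical axis) against RefSeq span in kb (horizontal log axis) for the 43 genes, coloured by role. CHEK1 and RAD51B both have 6 peaks at spans of 56.0 and 863.3 kb, and ATM, MSH3 and XRCC4 have none at 146 kb or more.

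Introns held 50 of the 75 peaks, 66.7% (55.4 to 76.3%), beside 61.7% of 6700 peaks in other protein-coding genes. An intronic peak was found in 21 of the 43 genes, beside 14.2% of protein-coding genes. Exons held 11 peaks, 14.7% (8.39 to 24.4%) beside 10.2%, in 9 of the 43 genes, beside 3.12% of protein-coding genes. The 3' UTR held 9 peaks, 12.0% (6.44 to 21.3%) beside 14.8%, in 8 genes, beside 4.39% of protein-coding genes. The promoter class held 4 peaks, 5.33% (2.09 to 12.9%) beside 8.60%, in 4 genes, beside 2.67% of protein-coding genes. The termination site class held 1 peak, 1.33% (0.236 to 7.17%) beside 3.84%, in 1 gene, beside 1.26% of protein-coding genes. No peak carried the 5' UTR label, and a count of 0 among 75 allows a share of up to 4% taking 3 counts as the limit, or 4.87% by the Wilson interval, beside 0.836% of peaks in other protein-coding genes, while 0.279% of protein-coding genes held such a peak. Each of these intervals takes in the share in other protein-coding genes. Peaks of the same gene are not independent, and the intervals leave this out.

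The class labels did not always follow the RefSeq ends of the gene. Whether they followed the ends of the named transcript was not checked, as no transcript positions were used. Of the 8 peaks labelled 3' UTR in genes with a known strand, 5 lay within 5000 nt of the gene end, in RAD18, CDC25A, MRE11 and BRIP1. The others, in ERCC6, CHEK1 and RIF1, lay 22254, 25158 and 54353 nt before it. Of the 4 promoter peaks, none lay in the RefSeq promoter window of any gene. That of POLQ named the same transcript as an exon peak nearer the start of the gene.

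Strand was known for 37 of the 43 genes, and 59 peaks lay inside the span of such a gene, at a median of 55.5% of the span. In other protein-coding genes the median was 59.0%. The last quintile of the gene held 9 of these 59, 15.3% (8.24 to 26.5%), against 30.8% of 5569 peaks in other protein-coding genes (29.6 to 32.1%). Within the 4 longest deciles the last quintile held 7 of 54, 13.0% (6.42 to 24.4%), against 29.4% (28.0 to 30.8%). The first quintile held 11.9% (5.87 to 22.5%) against 17.7%. The middle 3 quintiles held 14, 14 and 15 peaks, or 23.7%, 23.7% and 25.4%, against 17.1%, 15.8% and 18.5%. These differences were not tested. Peaks of the same gene are not independent, and some, as in CHEK1 and FANCC, lay close together. The intervals leave this out. No peak lay within 1000 nt of either end of its gene, and a count of 0 among 59 allows a share of up to 5.08% taking 3 counts as the limit, or 6.11% by the Wilson interval. In other protein-coding genes 3.05% lay that near the start and 7.83% that near the end. A fixed window is a smaller part of a longer gene, and within the 4 longest deciles these shares were 1.68% and 3.83%, both inside the interval of the 54 peaks of repair and checkpoint genes there (0 to 6.64%).

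Peaks of repair and checkpoint genes had a median width of 25 nt (interquartile range 20 to 32 nt, lowest 9 and highest 86 nt) against 24 nt (20 to 31 nt). They covered 2051 bases. In the 17 genes with several peaks there were 47 neighbouring pairs, with a median gap of 13920 nt against 14660 nt in other protein-coding genes. A gap of at most 1000 nt was seen in 6 pairs, 12.8% (5.98 to 25.2%) beside 11.4%. These were 1 pair each in ATR, CDC25A, POLQ, FANCC, CHEK1 and FANCI, with gaps of 0, 189, 539, 577, 914 and 998 nt.

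A second list of 110 repair and checkpoint genes outside the 43 was read the same way. This list was also chosen with earlier results of these data known. Of the 110 genes, 48 held a peak, 43.6% (34.7 to 53.0%), beside 21.6% of protein-coding genes. The 110 genes held 63 peaks, with a median of 0 and 12 genes with at least 2. Their median span was 31.8 kb, and these shares were not matched on span. By role, 9 of 15 checkpoint genes, 9 of 15 break-sensing genes and 7 of 13 recombination genes held a peak, against 2 of 6 genes of RecQ helicases and their partners, 1 of 8 end joining genes and 14 of 38 excision repair genes. Of the Fanconi anaemia genes outside the 43, with a median span of 14.8 kb, 4 of 11 did. PMS1, a mismatch repair protein, held 4 intronic peaks in 93.2 kb, the most of the 110, and 2 of 4 genes of that role held one. UIMC1, a ubiquitin reader that brings BRCA1 to breaks, held 3 intronic peaks, and APTX, FANCB, PARG and PKMYT1, which are an end-processing enzyme, a Fanconi subunit, the enzyme that removes poly(ADP-ribose) and a kinase related to WEE1, held 2 each. Introns held 68.3% of the 63 peaks.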

How the data were processed

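PAR-CLIP libraries from HEK293T cells were grouped by sample title into SMD2 immunoprecipitation (3) and input (1). The authors deposited 1 list of 9401 peak positions (other unit: base pairs in hg38, start counted from 0 and printed here from 1) with a transcript, gene and annotation class. Reads had gone through Trim Galore 0.6.10 and Bowtie2 2.5.1, per the submitters' processing notes. How peaks were called, whether the input was used and whether libraries were pooled is not given.

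Members, roles and the second gene list were chosen with earlier results of these data known. Peaks were joined to RefSeq genes of GRCh38.p14 by symbol on the same chromosome, or by a synonym within 10000 nt, and 87.4% matched. RefSeq gave spans, and strand came from its promoter table, which matched 37 of 43 members (not FANCI, NBN, PRKDC, WEE1, WRN or XRCC5). Exons were not used. Deciles of span were taken over 20056 protein-coding genes. Shares have Wilson 95% intervals. Members with 2 or more peaks are described in full, members with 1 peak by class, and of the second list the 6 genes with the most peaks. The second list had 2 further genes, which are not reported here and enter none of its counts of 110. Counting and merging were tested on simulated peaks in 200 genes. Software was Python 3.11.15 with pandas 2.3.3, numpy 2.4.6, scipy 1.17.1 and, for plots, matplotlib 3.10.9.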

Additional observations from a re-analysis of the deposited data

How the results depend on the processing

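Alternatives were peaks within 50 nt merged, only peaks inside the RefSeq span, intergenic peaks kept, the 12 entries after the sorted part left out, at least 2 peaks per gene, the widest peak per gene, a background without placeholder names, and omission of CHEK1 or of RAD51B. Of 26 values under an alternative, 24 stayed within 1.5 times the reported count or within its interval. The number of members with a peak was 28 under each of the first 4, and 17 with at least 2 peaks required. The first 4 could not change this number. Merging leaves a peak in each gene, and the only peak outside a span was in CHEK1, which held others inside. No intergenic peak and none of the 12 entries carried a member symbol. Such settings are also counted among the 24, so that count says little about stability. The other repair genes with a peak were 48, 49 with intergenic peaks kept, and 12 with at least 2 peaks required. Both drops follow from the stricter criterion. Member peaks numbered 74 or 75. The intronic share ranged from 63.8% without RAD51B to 67.6%, and the background share was 22.3% without placeholder names. No paired analysis was possible because the list has no value per library. For the same reason no library could be left out, and what depth limits is unknown.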

Other observations

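Some peaks lay inside the span of a repair gene but were assigned to another gene. There were 3 of these, all intronic, and they were not counted above. They were assigned to ACRV1 inside CHEK1, to NEB inside RIF1 and to FANCD2OS inside FANCD2. The list gives no strand, so which RNA was bound there cannot be told apart. No gene without a peak had such an entry in its span.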
